A study of Mus musculus with 6 samples.

Results

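Peg10, Mest, H19 and Igf2 are imprinted genes of the mouse, and the authors' lists of RNA contact sites of JARID2 placed sites on 2 of them, Peg10 and Mest. Members were the sites on the sense strand inside a fixed mm9 window per gene, and 35 of the 28728 sites in the lists met this rule. The list from retinoic acid-treated cells held 22 of them (16 on Peg10 and 6 on Mest), and the list from untreated cells held 13, all on Peg10. H19 and Igf2 are listed with 0 sites in either list. The genes were chosen by their numbers of sites in these same lists, so differences between the lists below are descriptions and carry no test.

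JARID2 is a partner protein of Polycomb repressive complex 2, which methylates histone H3 at lysine 27, and it binds RNA. Its contacts were mapped by PAR-CLIP: the modified base 4-thiouridine is built into RNA, ultraviolet light crosslinks the protein at that base, and the RNA recovered with the protein is sequenced. The tested cells were wild-type E14, a line of mouse embryonic stem cells, given 2 µM retinoic acid for 24 h to start differentiation. They were set against untreated E14 cells. All cells were grown in serum with LIF, labelled for 2 h with 4-thiouridine at 500 µM before a dose of 400 mJ/cm2 of light at 312 nm, and 1 in-house antibody lot was used for all. Each condition had 3 libraries, which the authors pooled into 1 list, so there is no spread between replicates for any value below. No library without JARID2 antibody and no RNA level of these genes was analysed here, so contact cannot be told apart from the amount of the RNA.

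An imprinted gene is expressed mainly from the copy of 1 parent. Peg10 and Mest are active on the paternal copy. Igf2 and H19 are neighbours with opposite imprints, Igf2 paternal and H19 maternal, which share enhancers and an imprinting control region that binds CTCF on the maternal copy. Polycomb complexes take part in silencing at some imprinted loci.

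The lists differed in length. The treated list held 5348 sites and the untreated list 23380, the untreated list being 4.37 times as long. Each site has a whole-number score given by the authors, and what it counts is not stated in any label or header. Treated sites had a median score of 23 (interquartile range 14 to 70), and untreated sites one of 17 (12 to 30). Read depth is unknown, so numbers of sites are also given as a share of the list, with exact (Clopper-Pearson) 95% intervals that cover counting error only.

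Peg10 is a gene derived from a retrotransposon. It encodes Gag-like and Pol-like proteins from overlapping frames, and the mouse placenta does not form properly without it. Its window ran from chr6:4697000-4710600 on the plus strand. The sites were spread over most of the window: from the first base of the first site to the last base of the last site, 12.8 kb were spanned, and the longest Peg10 transcript is 13.2 kb from end to end in GENCODE M21, which is on a later build. Only lengths were compared between the builds, so no site is assigned to an exon.

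In the treated list Peg10 held 16 sites with a summed score of 2291, and in the untreated list 13 sites with a summed score of 631. Peg10 thus had more treated sites than untreated ones although the treated list was much the shorter. Its share was 0.299% of treated sites (0.171 to 0.485) and 0.0556% of untreated sites (0.0296 to 0.0951), a ratio of 5.38. The summed score was 3.63 times as high in the treated list, and 5.08 times as high when taken as a share of all score in the list. Single loci weigh heavily in that total, so it is no measure of depth. The region chr17:39979968-39985776 (plus strand) alone held 1097010 of 4702962 treated and 1286372 of 6580243 untreated score.

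The scores of single Peg10 sites ran from 14 to 436 with a median of 92 in the treated list, and from 5 to 118 with a median of 47 in the untreated list. The ranges overlapped, and the treated values reached higher. A score of at least 100 was given to 8 of 16 treated sites and 2 of 13 untreated sites, against 20.3% of all treated and 8.09% of all untreated sites. Peg10 sites stood above the median score of their own list in 14 of 16 treated cases and in 10 of 13 untreated cases.

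The position shared most closely by the lists lay 544 bases into the window. There the treated site at chr6:4697544-4697557 had a score of 436, and the untreated site at chr6:4697544-4697554 had a score of 118. Each was the highest-scored Peg10 site of its list, and together they were the only pair on the gene that covered each other by at least 50% of their length. The treated list held 505 sites with a score at least as high as 436, and the untreated list held 1692 sites with a score at least as high as 118.

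Downstream of this position the sites formed a sparse stretch and then a dense one. The treated list had 1 further site in the sparse stretch, at chr6:4699911-4699918 with a score of 20, and the untreated list had no other there. In the treated list the longest run without a site was 4.50 kb, ending at 4704419, and in the untreated list it was 7.39 kb, ending at 4704942. The longest annotated Peg10 transcript has 2 exons, with 6.55 kb of intron between them and a last exon of 6.39 kb.

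The dense stretch in the 3′ part carried most sites of both lists. It held 14 treated sites over 5.97 kb (summed score 1835) and 12 untreated sites over 5.23 kb (summed score 513). These were 80.1% of the treated and 81.3% of the untreated Peg10 score. The treated sum was 3.58 times the untreated sum in the dense stretch and 3.86 times upstream of it.

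Within the dense stretch the highest treated sites were at chr6:4709632-4709644 (score 405), chr6:4709092-4709125 (252), chr6:4704469-4704480 (222) and chr6:4709549-4709557 (204). Of these 4, only the last overlapped an untreated site, one with a score of 65. The highest untreated sites there were at chr6:4708574-4708583 (105), chr6:4707088-4707099 (68) and chr6:4709534-4709549 (65). The first of these met a treated site of about the same score, 103, at chr6:4708583-4708597. The next met a treated site with a score of 55 at chr6:4707098-4707114.

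**Figure D1:**
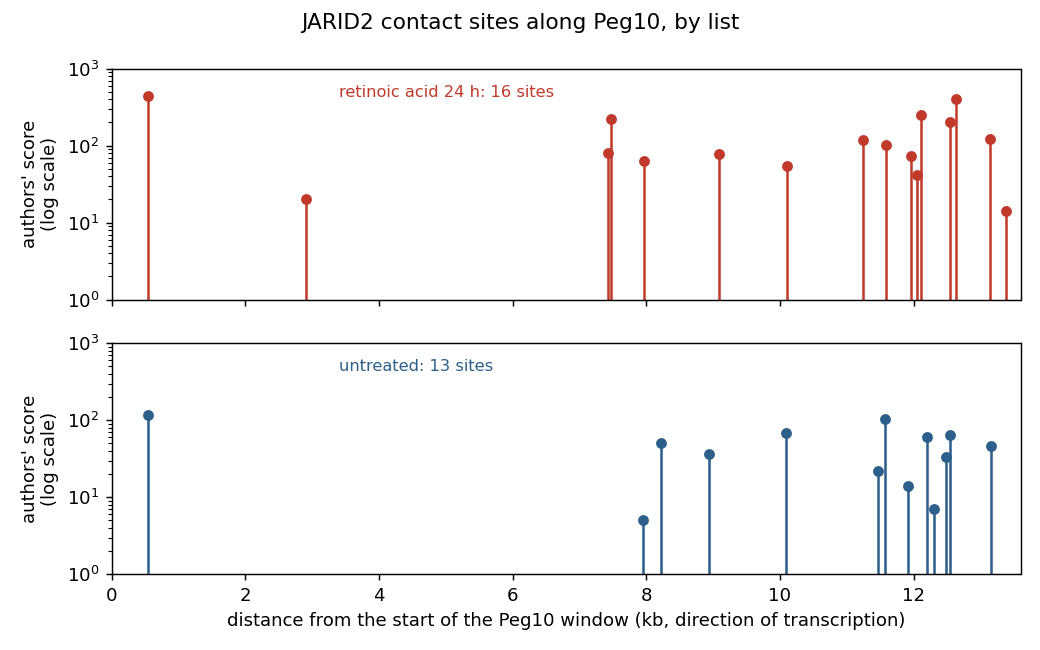
Score of each JARID2 contact site (vertical axis, authors' score, log scale) against its distance in kb from the start of the Peg10 window (horizontal axis), for retinoic acid-treated cells (upper panel, 16 sites) and untreated cells (lower panel, 13 sites). Each point is 1 site of a pooled list; in both panels a site near the start is followed by a sparse stretch and a dense 3′ stretch, and treated scores reach 436 against 118 for untreated ones.

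Some sites of the lists lay on the same bases of Peg10, and more lay near each other. By an overlap of at least 1 base, 4 of 16 treated sites (25%) and 4 of 13 untreated sites (30.8%) were shared. Over all sites the shares were 27.3% of the treated list and 6.28% of the untreated list. Of the 4 shared pairs, 3 overlapped by no more than 2 bases, and with at least 50% of both sites required, 1 pair was left. Within 100 bases, 9 treated and 9 untreated Peg10 sites had a partner, while over the lists 42.6% of treated and 12.5% of untreated sites did.

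Scores of overlapping pairs went both ways on Peg10. The treated score was higher in 2 of the 4 pairs, with treated-over-untreated ratios of 3.69 and 3.14, and lower in the other two, with ratios of 0.98 and 0.81. Over all 1514 overlapping pairs in the lists the median ratio was 0.77 (interquartile range 0.48 to 1.31), and 36.5% of pairs had a higher treated score. Shared Peg10 sites summed to a score of 798 in the treated list and 356 in the untreated list. Those without a partner summed to 1493 over 12 treated sites and 275 over 9 untreated sites. With a partner counted within 100 bases, sites with a partner summed to 1714 treated and 516 untreated, and those without to 577 treated and 115 untreated. The absolute difference was thus larger without a partner by overlap and larger with a partner within 100 bases, where more of the sites had one. As a ratio, treated over untreated, the sums of sites without a partner stood higher by both rules.

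To set Peg10 beside other loci, neighbouring sites on the same strand, from either list, were merged into a region wherever they lay no more than 10 kb apart. Peg10 formed a single region of 29 sites. Of the 489 regions with at least 10 sites, 52 (10.6%) held at least 2 times as large a share of the treated as of the untreated list, and the Peg10 region, at 5.38 times, ranked 3 by that ratio. Among 1159 regions with at least 5 sites it ranked 34. Since this contrast was in view when Peg10 was chosen, nothing is read from that rank. More treated than untreated sites were found in 4 regions (0.818%), among them Peg10, and a higher summed treated score in 14 regions (2.86%). By the ratio of summed scores Peg10 ranked highest of the 489. The scores come from the same lists by which Peg10 was chosen, so nothing is read from these counts or from this rank either.

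The 2 regions with a higher ratio of site shares were smaller than Peg10. They lay on chr10:98726011-98730001 (plus strand, 7 treated and 4 untreated sites) and on chr13:63609764-63612368 (minus strand, 8 treated and 5 untreated sites). Below Peg10, the nearest ratios belonged to 4 regions, of which the last 3 were tied at 4.37 times. On chr6:3150785-3151645 (plus strand) there were 18 treated and 17 untreated sites with mean scores of 14593 and 17413. On chr11:33654782-33655048 (minus strand) there were 6 treated and 6 untreated sites, and on chr2:5300209-5300397 (minus strand) 5 and 5. On chr4:133559694-133566111 (minus strand) there were also 6 and 6, over 6.42 kb, with mean scores of 35.7 per treated and 69.8 per untreated site. Each of these 4 regions had a lower summed score in treated than in untreated cells. The 2 regions above Peg10 had a higher one in treated cells, as Peg10 did. Their summed scores were 245 treated against 90 untreated on chr10, and 213 against 61 on chr13. Peg10 spanned 12.8 kb with a mean score of 143 per treated and 48.5 per untreated site.

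**Figure D2:**
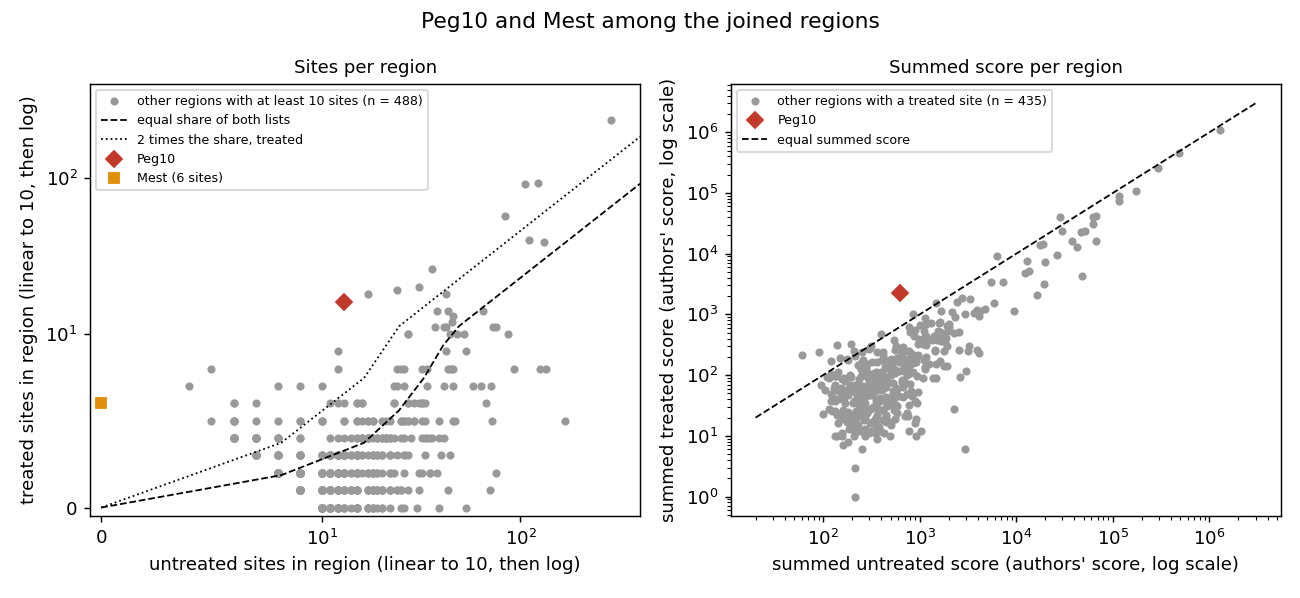
Left, treated sites (vertical axis) against untreated sites (horizontal axis) for each of the 489 joined regions with at least 10 sites and for Mest, on axes that are linear to 10 and logarithmic above; the dashed line marks an equal share of both lists and the dotted line 2 times that share. Right, summed treated against summed untreated score of the same regions that held a treated site (log axes; Mest, with no untreated score, is not drawn); Peg10, at 2291 against 631, lies above the line of equal score.

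The names of the sites gave a further view of Peg10. Each name holds a number that increases along every chromosome strand in both lists, with 0 strands out of order. Numbers with no listed site are skipped. What a number stands for is not stated in any label or header. It may be a stretch of reads, and a high-scored locus can have many sites under few numbers: on the plus strand of the mitochondrial chromosome 235 treated sites spanned 60 numbers and 286 untreated sites spanned 37. Counts of numbers are therefore not depth. The last number was 221592 in the treated list and 247324 in the untreated list, a ratio of 0.90, so the lists were far closer in numbers than in sites. A site was listed for 2.12% of treated and 8.68% of untreated numbers.

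Along Peg10 the names ran through 69 numbers in the treated list, of which 13 (18.8%) had a site, and through 49 numbers in the untreated list, of which 11 (22.4%) had a site. Numbers were sparse in the first part of the gene and dense in the 3′ part, as the sites were. From the first site to the dense stretch there were 2.47 numbers per kb in the treated list and 1.76 in the untreated list. Within the dense stretch there were 8.57 per kb treated and 6.71 per kb untreated. Between the outermost overlapping sites of Peg10, 12.0 kb apart, 63 treated and 44 untreated numbers were passed, a ratio of 1.43. In 43 nuclear regions with overlapping sites at least 5 kb apart, Peg10 included, the median ratio was 0.75 (interquartile range 0.63 to 0.98), and 4 regions had a ratio of 1.43 or more.

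**Figure D3:**
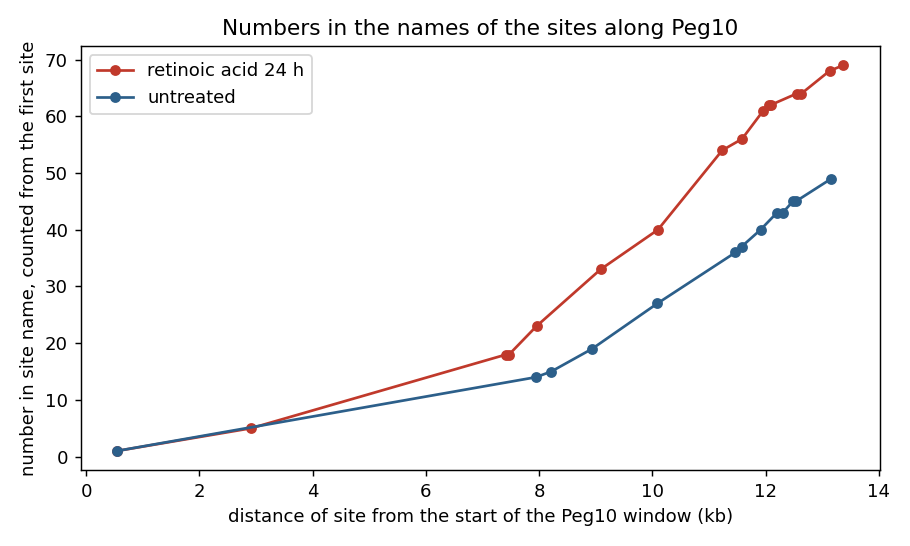
Number in the name of each Peg10 site, counted from the first site of its list (vertical axis), against the distance of the site in kb from the start of the window (horizontal axis), for retinoic acid-treated and untreated cells. Both lines are shallow over the first part of the gene and steep in the dense 3′ stretch, and they end at 69 (treated) and 49 (untreated).

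Mest, also known as Peg1, encodes a protein of the alpha/beta-hydrolase fold family, and an intron of the gene hosts a microRNA. Its window ran from chr6:30687000-30699500 on the plus strand. The treated list held 6 sites there and the untreated list 0. The treated share was 0.112% (0.0412 to 0.244). For the untreated list, a count of 0 of 23380 sites allows a share of up to 0.0128%, taking 3 sites as the limit, and against that limit the treated share, taken as counted, was at least 8.74-fold higher. The counting error of the 6 treated sites is not part of this bound.

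The 6 treated Mest sites fell into a single upstream site and a group of 5 in the 3′ part of the window. The upstream site was at chr6:30690352-30690363 with a score of 36. After 6.69 kb without a site came chr6:30697049-30697083 (score 32), chr6:30697157-30697167 (47), chr6:30697230-30697244 (49), chr6:30697594-30697603 (50) and chr6:30698029-30698047 (13). The group of 5 lay within 1 kb and carried 84.1% of the Mest score. In GENCODE M21 the Mest transcript with the longest spliced sequence is 10.4 kb from end to end with a last exon of 1.41 kb, which again compares lengths and not positions.

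Mest scores were lower than those of treated Peg10. They ran from 13 to 50 (median 41.5), and 5 of 6 were above the median of the treated list, but none reached 100. The summed score was 227, about the size of a single strong Peg10 site such as the one scored 222. Mest and Peg10 had in common an upstream site, a long stretch with few or no sites, and a group of sites in the 3′ part of the window. The nearest untreated site on the Mest strand was 288 kb before the window.

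Regions such as Mest, with 6 or more sites and no untreated one, were rare in the lists. Of 933 regions with at least 6 sites, 2 (0.214%) had no untreated site, Mest being 1 of them, and this was in view when Mest was chosen. Of all 1190 regions with treated sites only, 1139 (95.7%) consisted of a single site. By summed score Mest was not at the top of these regions, since 23 of them, itself included, had a score of at least 227.

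The numbers in the site names also bear on Mest. The treated sites ran through 35 numbers over 7.70 kb, and each of the 6 sites had a number of its own. In the untreated list the last site before Mest and the first after it were 986 kb apart and 38 numbers lay between them, or 38.5 per Mb against 43.5 per Mb over the whole strand. In the treated list the corresponding sites were 2161 kb apart with 303 numbers between them, or 140 per Mb against 40.4 per Mb over the strand. The intervals have different ends, so these densities are given side by side and not compared.

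**Figure D4:**
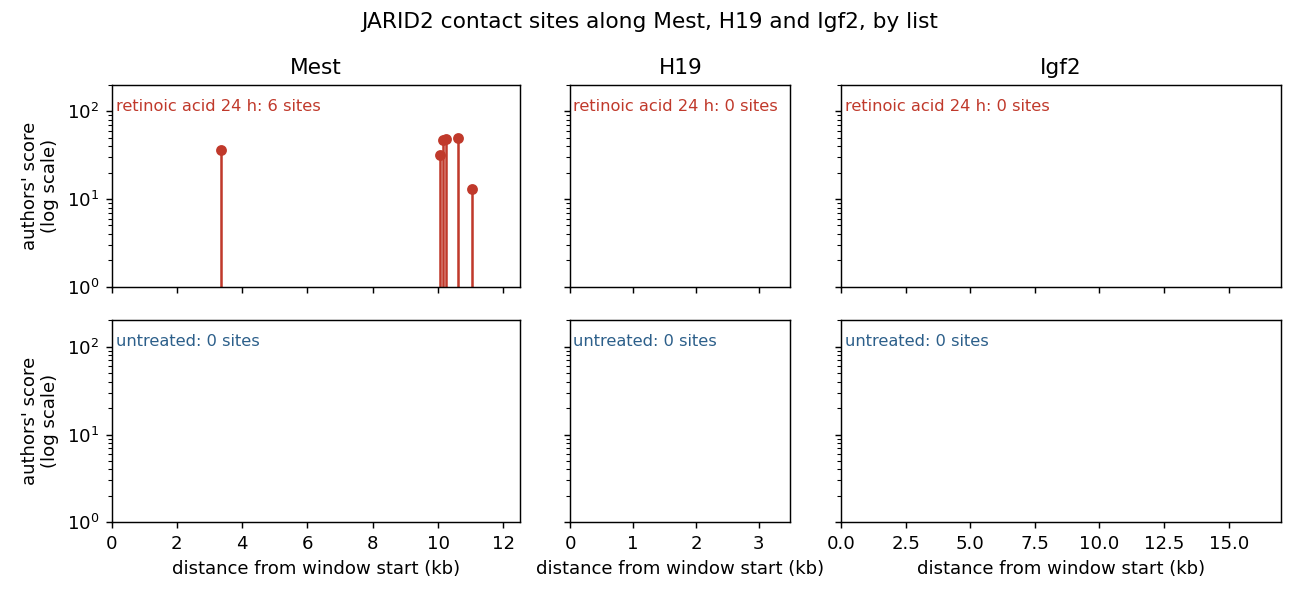
Score of each contact site (vertical axis, authors' score, log scale) against its distance in kb from the start of the Mest, H19 and Igf2 windows, in the direction of transcription, for retinoic acid-treated (upper row) and untreated cells (lower row). The upper Mest panel holds all 6 sites, with scores of 13 to 50; the other 5 panels are empty.

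H19 is a long noncoding RNA that is abundant in the embryo and falls after birth, and it is the precursor of a microRNA. Igf2 encodes insulin-like growth factor 2, a growth factor of the fetus and placenta. Their windows on the minus strand were chr7:149761000-149764500 for H19 and chr7:149836000-149853000 for Igf2. Neither held a site in the treated or the untreated list. For each gene a count of 0 allows up to 0.0561% of treated and 0.0128% of untreated sites. These are counting limits on the listed sites and do not show that H19 or Igf2 RNA was without contact.

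The genes lay together in a long interval without sites. On their strand the nearest sites on either side were 896 kb apart in the treated list and 597 kb apart in the untreated list. Such gaps are not unusual in the treated list, where 42 of 135 gaps between neighbouring sites on that strand were longer. In the untreated list 66 of 730 were longer, and the median gap was 159 kb treated and 2.80 kb untreated.

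Although no site was listed, each list skipped numbers of the site names within its own interval. In the treated list 67 numbers lay between the sites on either side, and in the untreated list 5 did. That is 74.8 numbers per Mb in the treated list, where the whole strand had 40.7, and 8.38 per Mb in the untreated list, where the whole strand had 50.2. At most 5 numbers of the untreated list can therefore lie on H19 and Igf2 together. The names do not show where in the interval the 67 treated numbers lie, and the treated interval is longer, so none can be placed on either gene. As for Mest, the densities are given side by side and not compared.

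The surroundings of the 4 genes were nearly empty in both lists. No site lay on the antisense strand inside any of the windows. Within 100 kb on either side, Peg10, H19 and Igf2 had no site on either strand in either list. Mest had 1, an untreated site on the minus strand at chr6:30773430-30773446 with a score of 11. The contacts on Peg10 and Mest thus ended with the windows on the sense strand, and the next site on the Peg10 strand was 116 kb upstream in the treated list and 113 kb upstream in the untreated list.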

How the data were processed

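Sites were read from the 2 deposited lists, 1 for each condition, each made by the authors from 3 libraries. The deposited values are the authors' score, a whole number per site and not normalised as far as the labels say. The submitters' processing notes name Bowtie and the mm9 build, with no version or role, and no label or header names the site caller. All sites were kept. Coordinates are counted from 1, and a site belonged to a gene when it overlapped the window by at least 1 base on the sense strand. Members, lists and rules were chosen with earlier results of these data known.

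With 1 pooled list per condition no test between conditions was made. A region was called at a share ratio of 2 or more. Named were the 4 genes, the 3 regions with the nearest ratio and 1 tied with them, and regions above Peg10, the last chosen after their values were seen. A list of other imprinted genes was not run, since the reference at hand is of a later build and positions were not converted; for the same reason no site sequence is shown and the E14 label was not checked against marker genes. On simulated lists of 300 regions, 20 of 20 raised regions were called and 0 others, and 300 overlaps recounted directly gave 0 differences. The simulated regions held more sites than most real ones and had ratios set far from 2. This therefore checks the counting and gives no error rate for the regions called in the real lists. Alternatives were score minimums, other windows, strands, overlaps, gaps and minimum numbers of sites. Tools were Python 3.11.15, pandas 2.3.3, numpy 2.4.6, matplotlib 3.10.9 and scipy 1.17.1.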

Additional observations from a re-analysis of the deposited data

How the results depend on the processing

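No paired analysis was possible because each condition is 1 pooled list with no value per library; for the same reason no library could be left out. The share ratio of Peg10 lay between 3.54 (treated scores of at least 10 against untreated scores of at least 18) and 6.97 (scores of at least 100 in both lists, from 8 treated and 2 untreated sites) over 4 alternatives, and stayed above 1 in each. The ratio of summed Peg10 scores was 8.36 with scores of at least 100, a setting chosen after seeing the data. At that minimum Mest kept 0 of its 6 treated sites. Peg10 had 1 shared treated site when 50% of both sites had to overlap and 9 within 100 bases. Regions with at least 2 times the share in the treated list numbered 211 of 1159 with a minimum of 5 sites, 11 of 186 with 20, 79 of 695 with gaps of up to 100 kb, and 8 of 239 with treated scores of at least 10 against untreated scores of at least 18; Peg10 was called in each, with rank 34, 1, 4 and 2 in that order. With gaps of up to 1 kb, 37 of 198 regions (18.7%) were called, and the largest part of Peg10 held 9 treated and 8 untreated sites, a ratio of 4.92 with rank 3. The cause of these shifts was not tested, beyond fewer or more sites entering. Of 74 alternative values, 64, the 37 among them, moved by no more than 1.5 times or stayed within their counting interval. Many of the 64 were counts of 0 for untreated Mest, H19 and Igf2 that stayed at 0, and stricter settings could not have changed them. The number of 64 is therefore no measure of robustness. A reversal was defined only for the share ratio and the summed score ratio of Peg10, and neither reversed. Unknown read depth limits all site numbers.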

Other observations

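Where sites of the lists lay close together on Peg10, the treated site was usually the one further downstream. Its centre lay downstream of the untreated centre in all 4 overlapping pairs, with a median shift of 11.5 bases, and in 5 of 6 pairs within 30 bases. In 1 of the 4 overlapping pairs both sites start at chr6:4697544, and the shift of 1.5 bases comes from the treated site being longer. Among all 2914 pairs within 30 bases in the lists, the treated centre lay downstream in 48.5%. Over all 1514 overlapping pairs in the lists the treated centre lay downstream in 46.7%, with a median shift of 0, and 7.07% of those pairs overlapped by no more than 2 bases, against 3 of the 4 on Peg10. The 4 pairs share a transcript and were looked at after their values were seen, so this is a description.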
